A study of Mus musculus with 2 samples.

Results

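Complex I is the largest enzyme of the mitochondrial respiratory chain, and 40 genes of the deposited muscle table carry a symbol that begins with Nduf, the symbol stem for its nuclear-encoded subunits and assembly factors. They were taken by that symbol from 10543 genes with a single symbol, and all 40 had a mean above the filter of 1 FPKM, which 10533 genes passed. FPKM is the number of fragments scaled by transcript length and by the fragments mapped in a library. The deposited values run higher than that unit in its usual form. The median gene past the filter stood at 223 (control) and 224 (CR), and 7886 genes had a mean of at least 100. Their scale is therefore unknown, and levels and cut-offs called FPKM here hold within this table only. The tissue was skeletal muscle from the thigh, taken at 26 months of age from B6C3F1 mice: 1 library from mice on the control diet and 1 from mice on calorie restriction (CR), which ate about 40% fewer calories for 25 months on a diet enriched to keep protein, vitamins and minerals per body weight close to those of the controls. With 1 library per diet there is no replicate check and no p-value is given. The sources used here do not say whether RNA of several mice was pooled. The depth of each library is unknown, so no counting interval is given. In whole muscle, fewer cells of a type and less RNA per cell cannot be told apart.

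Complex I takes electrons from NADH, passes them through a flavin and a chain of iron-sulfur clusters to ubiquinone, and pumps protons out of the matrix. It is built from an N module that binds NADH, a Q module that reduces ubiquinone, and a membrane arm whose proximal and distal P modules carry the proton pumps. The hydrophobic core of that arm is encoded in mitochondrial DNA, the other core subunits and the supernumerary subunits are encoded in the nucleus, and assembly factors help to build the enzyme without staying in it. Muscle fibres that work by oxidative metabolism hold much of it.

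Nearly every Nduf gene stood higher in the CR library, by a modest ratio: 37 of the 40 were higher and 3 were lower. Each ratio sets the CR library against the control library on a log2 scale after 1 FPKM is added to both, and each fold is that ratio without the log. The median over the 40 was 0.47 in log2 units (1.39-fold), against -0.03 over all genes that passed the filter. Higher by any amount were 92.5% of the Nduf genes and 47.9% of all genes. At least 1.5-fold higher were 16 of 40 (40.0%), beside 16.4% of all genes, and 0 of 40 were at least 1.5-fold lower, beside 18.8%. At least 2-fold higher were 4 of 40 (10.0%), which is near the 8.01% of all genes, and 0 were at least 2-fold lower, beside 10.7%. The share of Nduf genes thus lay above that of all genes at 1.5-fold and close to it at 2-fold.

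**Figure D1:**
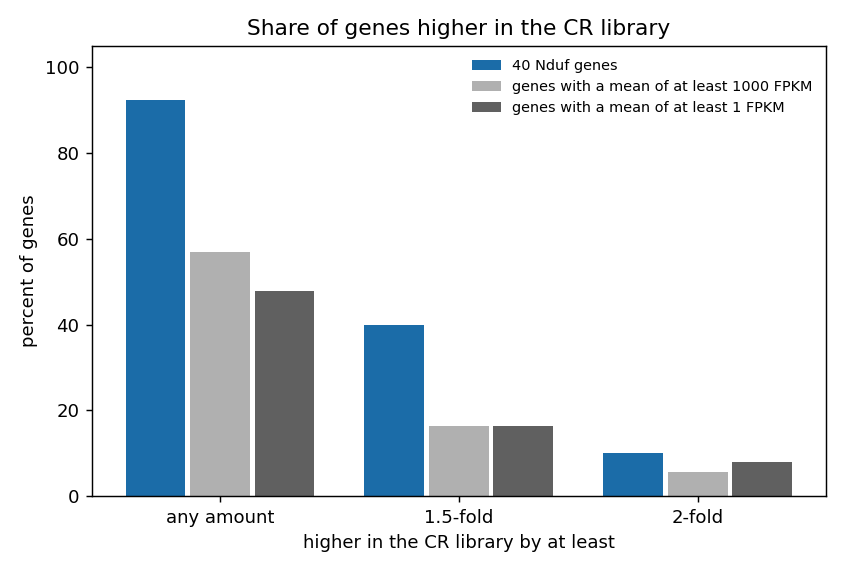
Bars give the percent of genes that stood higher in the CR library by any amount, by at least 1.5-fold and by at least 2-fold, for the 40 Nduf genes, genes averaging 1000 FPKM or more and all genes past the filter of 1 FPKM. The Nduf bars reach 92.5%, 40.0% and 10.0%; those of all genes reach 47.9%, 16.4% and 8.01%.

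Nduf transcripts are short and abundant, and among abundant genes shorter transcripts had higher ratios in this table. Of the 40 genes, 32 had a mean of at least 1000 FPKM. Among all 894 genes at that level 56.9% were higher in the CR library by any amount and 16.4% by at least 1.5-fold, with a median log2 ratio of 0.07. The median transcript of an Nduf gene was 921 nt long, against 2860 nt over all genes. Across the 888 abundant genes with a known length, Spearman's rho between length and log2 ratio was -0.39, as a description across genes of the same pair of libraries. In the class from 500 to 1000 nt the other 124 abundant genes had a median log2 ratio of 0.47, and 41.1% of them were at least 1.5-fold higher. The 21 Nduf genes of that class, which were not filtered at 1000 FPKM, had a median of 0.47, and 9 of them (42.9%) were at least 1.5-fold higher. So among transcripts of this length the Nduf genes, of any level, sat where the abundant comparison genes sat. They sat above the 605 other genes of any level in that class, whose median was 0.31. Without complexes II to V the comparison genes stayed near that value, at a median of 0.44 over 108 genes. In the class from 1000 to 2000 nt the median was 0.31 for 14 Nduf genes of any level and 0.14 for 239 abundant comparison genes. At least 1.5-fold higher were 35.7% and 13.4%. The 2388 other genes of any level in that class had a median of 0.05. What part length has in the ratios was not tested.

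**Figure D2:**
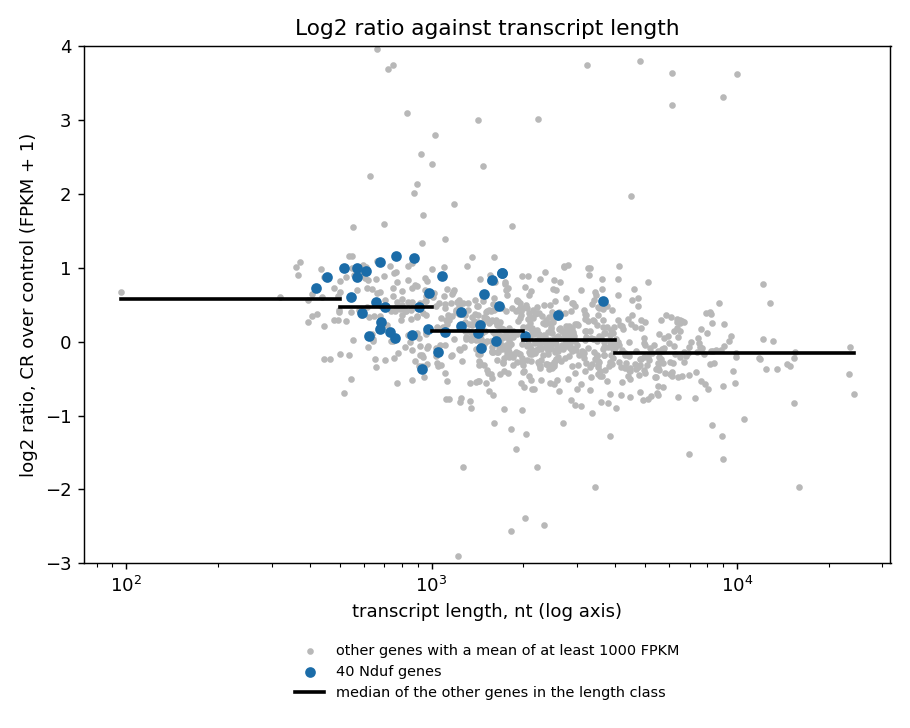
Each point is a gene, with transcript length in nt on a log axis and the log2 ratio of CR over control on the y axis; blue points are the 40 Nduf genes, grey points other genes averaging 1000 FPKM or more, and black bars the median of the grey points in each length class. The bars step down from 0.58 in the shortest class to -0.15 above 4000 nt, and the blue points spread around them; 3 grey points lie beyond the y axis.

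Markers of other cells and of fibre type differed between the libraries too. For their counts, the shares of all genes to compare were 8.01% at least 2-fold higher and 10.7% at least 2-fold lower. Further marker sets, among them tendon with 3 of 5 genes at least 2-fold lower, are given in the closing section. All 7 of 7 slow-fibre sarcomere genes passed 2-fold upwards under CR, with summed levels of 14302 FPKM (control) and 127735 FPKM (CR) and none at 0. The slow myosin heavy chain Myh7 stood at 8953 and 81978 FPKM, and the slow light chain Myl2 at 644 and 10019 FPKM. Of 9 white adipocyte markers 7 were at least 2-fold higher (sums of 9657 and 27604 FPKM, none at 0). So were 6 of 6 measured brown adipocyte markers (1776 and 4050 FPKM), of which Ucp1, Otop1 and Prdm16 had a control value of 0. Most of the brown adipocyte sum came from Cox8b (1697 and 3402 FPKM), which is a complex IV gene as well. Markers of the labelled tissue, skeletal muscle, were abundant in both libraries, and 5 of the 6 above 0 were higher under CR, 3 by at least 1.5-fold. The fast light chain Mylpf stood at 146936 and 283395 FPKM (1.93-fold), the fast troponin genes Tnnc2 at 133102 and 246497 (1.85-fold) and Tnnt3 at 103936 and 171817 (1.65-fold). Myoglobin, Mb, stood at 26808 and 38550 FPKM (1.44-fold) and muscle creatine kinase, Ckm, at 77033 and 100573 (1.31-fold). The skeletal actin Acta1, at 372424 and 354522 FPKM, was 1.05-fold lower. The giant sarcomere genes Ttn and Neb were listed at 0 in both, which can be a failed estimate. The part of muscle content, of fibre type, of fat or of tissue makeup in the Nduf ratios was not tested.

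The promoters of the family were searched for short sets of letters, none of which occurred in more than 20% of those matched. RefSeq start sites, the first listed for each gene (build GRCm38.p6, 250 bases before to 50 bases after the start), matched 35 of the 40 genes. Both strands were searched for 6 sets of letters. The YY1 letters AAGATGGC occurred in 7 of the 35 (20%) and in 2.88% of 27025 promoters of all genes. Among the 650 promoters of genes that averaged 1000 FPKM or more, 5.38% held them. Both wider sets include Nduf promoters, these 7 among them. In all 7 the match lay on the sense strand between positions 23 and 39 after the start; anywhere after the start on the sense strand, 0.958% of all promoters hold it. The letters include ATG, the start codon triplet. They are shown to let the shared letters be seen, 5′ to 3′ on the gene's strand, with the YY1 letters in capitals.
Ndufa3 (chr7:3617384-3617413, plus strand): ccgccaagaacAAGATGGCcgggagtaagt
Ndufa9 (chr6:126849097-126849126, minus strand): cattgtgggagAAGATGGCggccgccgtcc
Ndufb8 (chr19:44555393-44555415, minus strand): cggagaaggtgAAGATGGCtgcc
Ndufc1 (chr3:51408915-51408944, minus strand): gcctgcggaacAAGATGGCgccgtccgtag
Ndufs4 (chr13:114388045-114388070, minus strand): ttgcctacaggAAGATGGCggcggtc
Ndufs6 (chr13:73328433-73328460, minus strand): gggtcaccggcAAGATGGCggcggtgct
Ndufs7 (chr10:80249462-80249491, plus strand): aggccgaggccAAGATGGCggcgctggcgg
The log2 ratios of the 7 genes ran from 0.05 (Ndufs7) to the 2-fold line (Ndufa3), and their median log2 ratio was 0.22 against 0.51 for the 28 without the letters.

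NRF1, a factor known to act on respiratory chain genes, has a motif of GCGCA, any base and GCGC, which was found in 7 of the 35 promoters (20%), 4.78% of all promoters and 13.1% of those of abundant genes. Its palindromic form, with T at the free base, was found in 2 of 35 (5.71%), Ndufa11 and Ndufaf4, against 0.977% of all and 2.31% of abundant genes; these matches are counted in the looser motif as well. Windows of 50 bases are given for the palindromic matches, with the motif in capitals.
Ndufa11 (chr17:56717682-56717731, plus strand): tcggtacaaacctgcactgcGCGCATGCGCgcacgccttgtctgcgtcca
Ndufaf4 (chr4:24897950-24897999, plus strand): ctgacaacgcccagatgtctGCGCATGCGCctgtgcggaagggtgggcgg
The median log2 ratio was 0.55 for the 7 genes with the looser motif (Ndufa11, Ndufa5, Ndufa6, Ndufa8, Ndufaf4, Ndufb4 and Ndufs6) and 0.47 for the 28 without. The ETS letters CCGGAAG were in 5 promoters (14.3%; 9.12% of all and 14.5% of abundant genes), namely Ndufs8, Ndufb6, Ndufb7, Ndufaf1 and Ndufs3. The median log2 ratio was 0.07 for these 5 genes and 0.51 for the others matched. The SP1 letters GGGGCGGGG were in 6 (17.1%; 11.6% and 21.4%), with medians of 0.24 for these and 0.55 for the others. The letters CAAGGTCA, read by ERR receptors, were in 0 of 35 (1.53% of all and 1.23% of abundant genes).

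Genes of the N module, the NADH-oxidising tip, had the highest median of the modules. Of 9 measured genes all 9 were higher in the CR library, 5 by at least 1.5-fold and 0 by 2-fold. Their median was 0.83 in log2 units (1.78-fold). For this and the other modules, the shares of all genes to compare were 16.4% at 1.5-fold and 8.01% at 2-fold. Ndufv2, an iron-sulfur core subunit (chromosome 17, 66428135 to 66450893 on mm9), was listed at 2995 FPKM under the control diet and 5701 under CR (1.90-fold). Its core partners had smaller ratios: Ndufv1, which binds the flavin and NADH, stood at 3446 and 4794 FPKM (1.39-fold), and Ndufs1, which carries most of the clusters of the tip, at 3878 and 4986 FPKM (1.29-fold). Thus the core subunits of the tip did not share a ratio.

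The supernumerary genes of the N module spread as widely. Ndufs4 (chromosome 13, 115078003 to 115178302), needed for a stable N module and mutated in mouse models of Leigh syndrome, stood at 948 and 1808 FPKM (1.90-fold). Ndufs6, a zinc-binding subunit added late in assembly, stood at 1894 and 3456 FPKM (1.82-fold), and Ndufv3, which exists in a short and a long protein form, at 1977 and 3528 FPKM (1.78-fold). These genes made up the upper end with Ndufa2, a small thioredoxin-fold subunit, at 2773 and 5526 FPKM (1.99-fold). Ndufa6, an LYR-motif subunit where the N and Q modules meet, stood at 3757 and 4905 FPKM (1.31-fold). Ndufa12 stood at 1280 and 1404 FPKM, the smallest fold of the module at 1.10. The module's transcripts were not the shortest, with a median of 1582 nt against 921 nt over the 40 genes. Ndufa7 is known only from a locus merged with Kank3 (2578 and 3500 FPKM, 1.36-fold) and is not counted.

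The Q module, where ubiquinone is reduced, had the lowest median of the modules, 0.05 on the log2 scale (a fold of 1.03), over 5 genes. Ndufs7, the subunit of the terminal cluster next to ubiquinone, stood at 3542 and 3657 FPKM (1.03-fold). Ndufs3 (chromosome 2, 90734790 to 90745068) was the 1 complex I subunit that was lower in the CR library, with 970 FPKM against 883 (1.10-fold lower). The other members of the module were higher. Ndufs8, which carries a pair of clusters, stood at 2104 and 3329 FPKM (1.58-fold). Ndufa5 (chromosome 6, 24468512 to 24477687), a supernumerary subunit of the matrix arm, stood at 2882 and 6285 FPKM, at 2.18-fold the second highest ratio of the family. Within 1 module the folds thus ran from 1.10-fold lower to 2.18-fold higher, so the module medians rest on few genes. When genes below a mean of 1000 FPKM were left out, a choice made after seeing the data, Ndufs3 was lost and the Q median became 0.35.

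**Figure D3:**
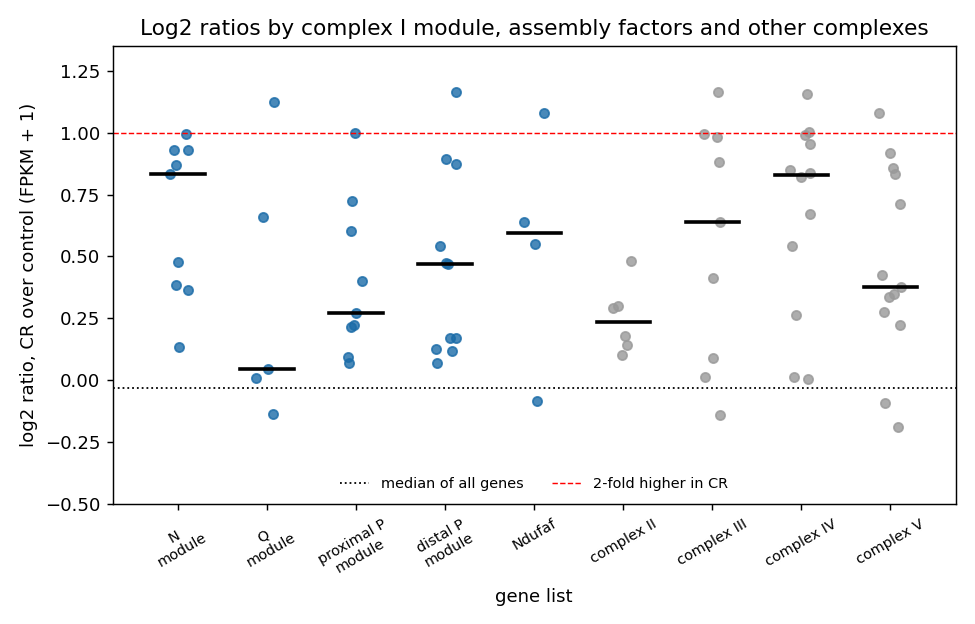
Points are genes, grouped by complex I module, the Ndufaf assembly factors (blue) and complexes II to V (grey), with the log2 ratio of CR over control on the y axis; black bars are medians, the dotted line the median of all genes at -0.03 and the dashed line 2-fold. Medians run from 0.05 in the Q module to 0.83 in the N module, and each of the 4 modules spreads by more than the gap between most medians; Cox4i2, listed at 0 in the control library, is not drawn.

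In the proximal P module, the part of the membrane arm next to the matrix arm, 9 of 9 measured genes were higher, 3 by at least 1.5-fold and 1 by 2-fold, with a median of 0.27 in log2 units (1.21-fold). Ndufa3 (chromosome 7, 3568975 to 3572284), a small single-span membrane subunit, stood at 2457 and 4917 FPKM, at the 2-fold line. Ndufa1 (chromosome X, 34727584 to 34732401), the small X-linked MWFE subunit, stood at 3478 and 5750 FPKM (1.65-fold), and Ndufa11 at 2377 and 3616 FPKM (1.52-fold). These genes had the highest folds of the module. Ndufa13, also known as the cell death regulator GRIM-19, stood at 5292 and 6992 FPKM (1.32-fold). Ndufc2 and Ndufc1, which sit together at the membrane arm, stood at 1547 and 1865 FPKM (1.21-fold) and at 4234 and 4915 FPKM (1.16-fold). The last 3 genes also lay within 1.17-fold. Ndufa9, which binds a nucleotide near the ubiquinone channel, stood at 992 and 1159 FPKM (1.17-fold). Ndufa8 stood at 2209 and 2361 FPKM (1.07-fold), and Ndufa10 at 1519 and 1596 FPKM (1.05-fold). Ndufs5 is not analysed here.

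In the distal P module, the outer end of the membrane arm, 11 of 11 measured genes were higher, 3 by at least 1.5-fold and 1 by 2-fold, with a median of 0.47 (a fold of 1.38). Ndufb3 (chromosome 1, 58643240 to 58652872), a small single-span subunit, had the highest ratio of the family, at 613 and 1376 FPKM, a fold of 2.24. Ndufb5 (chromosome 3, 32635896 to 32650481) stood at 2428 and 4510 FPKM (1.86-fold) and Ndufb2 at 1268 and 2326 FPKM (1.83-fold). These 3 stood apart from the rest of the module, whose folds were at most 1.46. Ndufb6 stood at 1432 and 2083 FPKM (1.46-fold), and Ndufb9, an LYR-motif subunit and the most abundant complex I subunit in both libraries, at 6820 and 9473 FPKM (1.39-fold). Ndufb11, an X-linked subunit, stood at 1532 and 2121 FPKM (1.38-fold). The remaining genes lay within 1.13-fold. Ndufb8, a subunit often used as a marker of assembled complex I on immunoblots, stood at 5301 and 5968 FPKM (1.13-fold), and Ndufb4 at 264 and 298 FPKM (1.13-fold). Ndufb10 stood at 3789 and 4132 FPKM (1.09-fold), and Ndufb7 at 2198 and 2307 FPKM (1.05-fold). Ndufab1, the mitochondrial acyl carrier protein, stood at 1088 and 1182 FPKM (1.09-fold). Ndufb1 is not analysed here.

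By symbol, the groups overlapped. The median log2 ratio was 0.40 for the 13 Ndufa genes (range -0.37 to 1.12), 0.47 for the 10 Ndufb genes (0.07 to 1.17), 0.57 for the 10 Ndufs and Ndufv genes (-0.13 to 0.93) and 0.60 for the 4 Ndufaf genes (-0.08 to 1.08). At least 1.5-fold higher were 6 of 13, 3 of 10, 5 of 10 and 2 of 4, beside 16.4% of all genes. At least 2-fold higher were 2, 1, 0 and 1, beside 8.01% of all genes. The spread within each symbol group was wider than the gap between their medians. The 7 nuclear core subunits, those with relatives in the bacterial enzyme, had a median of 0.36 with 6 higher, and the 27 supernumerary subunits a median of 0.47 with 27 higher.

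Levels of the subunits were also compared within a library, since FPKM is scaled by length. Over 34 complex I subunits the level ran from 264 FPKM (Ndufb4) to 6820 FPKM (Ndufb9) in the control library, with a median of 2293 and 24 of 34 within 2-fold of it. In the CR library it ran from 298 to 9473 FPKM, with a median of 3572 and 26 of 34 within 2-fold. Assembled complex I holds most subunits in equal number, but their transcripts differed in level in both libraries, and the order was largely kept: Spearman's rho between the libraries over the 40 genes was 0.94, as a description. All Nduf genes together took 1.42% of the summed FPKM of the 10543 single-symbol genes under the control diet and 1.79% under CR. Unnamed loci and loci of several symbols are not in those sums. Of the 40 genes 33 lay above the 90th percentile of level in each library. The control level did not order the ratios (Spearman's rho 0.04 over the 40 genes). The low place of Ndufb4 is uncertain, because RefSeq lists near copies of it (Ndufb4b and Ndufb4c) with which it can share reads.

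**Figure D4:**
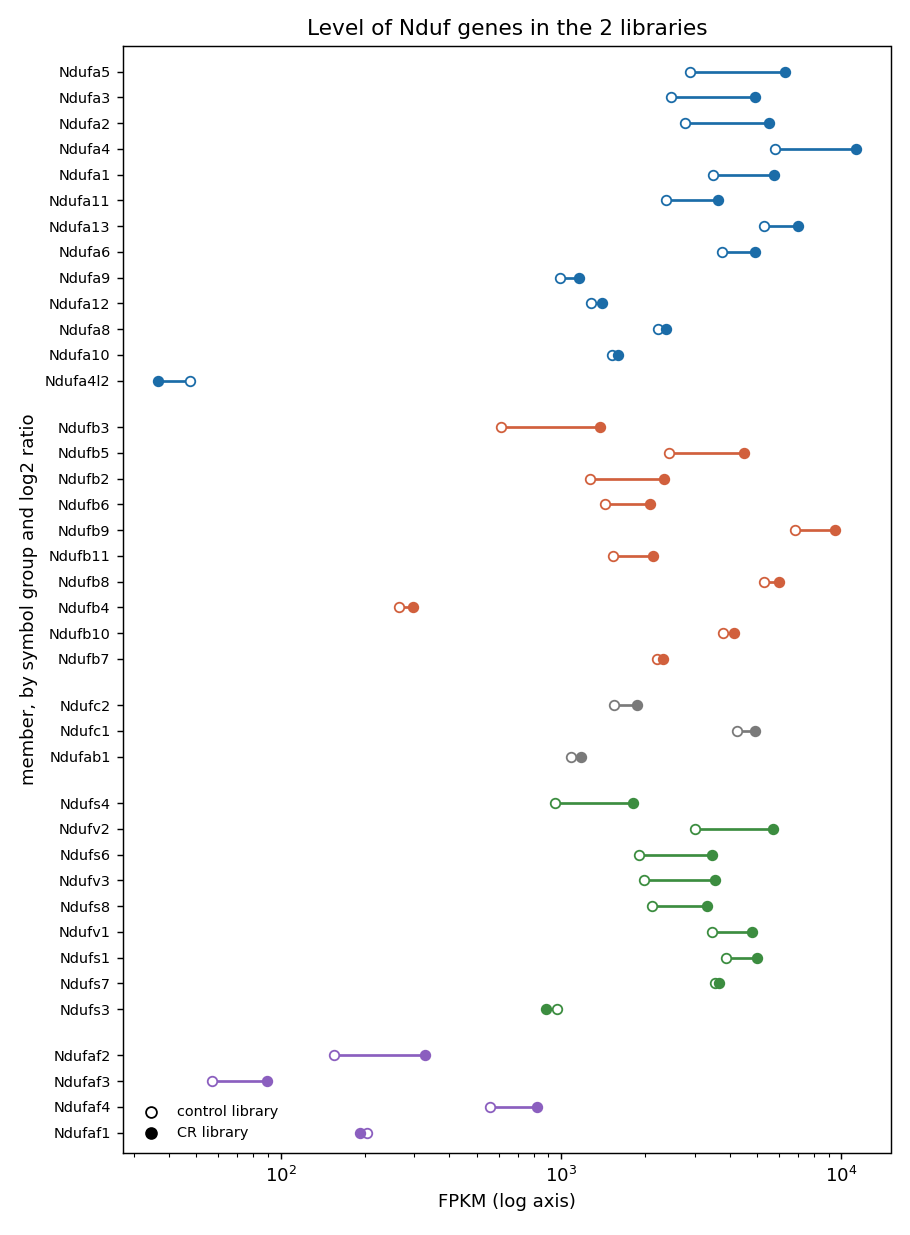
Each of the 39 rows is an Nduf gene, with its level in FPKM on a log axis; open circles are the control library, filled circles the CR library, and colours and gaps separate the symbol groups, sorted by log2 ratio within each. Filled circles lie to the right in 36 of 39 rows; Ndufa4l2, Ndufs3 and Ndufaf1 are the exceptions.

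Ndufa4 and its paralog Ndufa4l2 carry the symbol but are not complex I subunits in present usage: Ndufa4 protein is found in complex IV, and Ndufa4l2 is a gene induced by hypoxia. Ndufa4 (chromosome 6, 11850373 to 11857475) was the second most abundant Nduf gene under the control diet, at 5786 FPKM, and the first under CR, at 11236 FPKM (1.94-fold). Ndufa4l2 (chromosome 10, 126951995 to 126954975) was the least abundant in both, with 47.7 FPKM under the control diet against 36.6 under CR (1.29-fold lower), the lowest ratio of the family. Without this pair, 33 of 34 subunits were higher, with a median log2 ratio of 0.44.

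The assembly factors were far less abundant than the subunits, with a median of 179 FPKM in the control and 260 in the CR library over the 4 Ndufaf genes. Ndufaf2 (chromosome 13, 108842783 to 108948819), a paralog of Ndufa12 that occupies its place during assembly, stood at 155 and 328 FPKM (2.11-fold). Ndufaf3 and Ndufaf4, partners in early Q module assembly, stood at 56.9 and 89.3 FPKM (1.56-fold) and at 560 and 821 FPKM (1.47-fold). Ndufaf1, an early factor of the membrane arm, was lower, at 203 and 191 FPKM (1.06-fold lower). The table lists 4 further Ndufaf genes by older symbols, which are not counted among the 40. Ndufaf5 stood at 721 and 798 FPKM, Ndufaf6 at 183 and 220.0, Ndufaf7 at 394 and 397 and Ndufaf8 at 201 and 224 FPKM. Their median log2 ratio was 0.15, and the median over all 8 was 0.21 in place of 0.60.

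Assembly factors without the symbol gave no common direction. Of 12 measured genes 8 were higher and 4 lower in the CR library, 1 by at least 2-fold, with a median log2 ratio of 0.17. Tmem126a, a membrane assembly factor, was listed at 403 and 830 FPKM (2.05-fold), and Acad9, an acyl-CoA dehydrogenase relative that acts in complex I assembly, at 205 and 391 FPKM (1.91-fold). Foxred1 stood at 112 and 161 FPKM, and Nubpl, which delivers iron-sulfur clusters to the enzyme, at 372 and 494 FPKM. Those 4 were the genes furthest above the control. Timmdc1, Dmac1 and Dmac2 are in the table under older symbols. Timmdc1 stood at 268 and 304, Lyrm2 at 102 and 116, Tmem126b at 135 and 150.2, and Tmem70 at 429 and 465 FPKM. Ecsit stood at 660 and 621, Dmac2 at 242 and 209.6, Tmem186 at 140.1 and 114, and Dmac1 at 312 and 236 FPKM. The last 4 were lower in the CR library, by less than 1.5-fold.

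Complex I lay among the other complexes of the chain and did not lead them. The median log2 ratio was 0.84 for 13 genes of complex IV, 0.64 for 9 of complex III and 0.47 for the 40 Nduf genes. It was 0.37 for 13 genes of complex V and 0.24 for 6 of complex II. The 34 complex I subunits alone, without the Ndufaf genes and the Ndufa4 pair, had 0.44. The sets are not alike, since the complex II list includes assembly factors and the complex IV list leaves out Ndufa4. Complex IV, where Cox4i2 was listed at 0 and 28.6 FPKM, was led by Cox8a (757 and 1688 FPKM), Cox8b (1697 and 3402) and Cox7b (13685 and 27156), and complex III by Uqcrb (4721 and 10577), Uqcrh (4297 and 8553) and Uqcr10 (6881 and 13601). In complex V these were Atp5k (718 and 1517), Atp5g1 (4889 and 9240) and Atp5j2 (4928 and 8925), with Atp5b the most abundant (24407 and 29552). In complex II they were Sdhd (1867 and 2608), Sdhaf2 (221 and 272) and Sdhb (3365 and 4125), with Sdha the most abundant (4247 and 4554). Median transcript lengths were 645 nt for complex IV, 547 nt for III, 921 nt for the Nduf genes, 838 nt for V and 2695 nt for II. The differences between the complexes have no replicate check. The mitochondrially encoded core subunits could not be separated, since the table has 2 loci that span the mitochondrial genome, on the plus and the minus strand; these stood 1.80 and 1.71-fold higher in the CR library.

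The regulators of mitochondrial gene expression did not share the direction of the Nduf genes. Of 14 genes 5 were higher (35.7%, beside 47.9% of all genes) and 9 lower in the CR library. The median log2 ratio was -0.18, against -0.03 over all genes. At least 1.5-fold lower were 3 of the 14, beside 18.8% of all genes, so the counts lay not far from those shares. Ppargc1a, the coactivator PGC-1alpha, stood at 902 and 488 FPKM (1.85-fold lower), and its relative Pprc1 at 189 and 68.3 FPKM (2.75-fold lower). Esrrg, an oestrogen-related receptor of oxidative muscle, stood at 147 and 225 FPKM (1.53-fold higher). Transcripts of this list were long, with a median of 3706 nt.

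Some members share their span with other loci, and the labelled library kit keeps no strand, so reads in such overlaps cannot be assigned with certainty. Of the 40 genes 12 overlap another named locus, among them Ndufa3, Ndufa2, Ndufa1, Ndufs6 and Ndufs3. Without these 12 the median log2 ratio was 0.39 and 10 of 28 were at least 1.5-fold higher, beside 16.4% of all genes. Unnamed loci lay over 12 members, and some had values close to those of the gene. Over Ndufb3 an unnamed locus on the other strand stood at 412 and 1175 FPKM, and over Ndufb8 one of 162 bases at 3281 and 5621 FPKM, a fold of 1.71 where Ndufb8 itself had 1.13. Over Ndufa4 one stood at 4143 and 3907 FPKM, where Ndufa4 had nearly 2-fold. Among 21 such loci that averaged 100 FPKM or more, 17 stood higher under CR, 13 by at least 1.5-fold. Of genes at that level 48.9% were higher and 13.4% at least 1.5-fold higher. The part of these loci in the values of the members was not tested. RefSeq lists pseudogenes or further copies for Ndufa11, Ndufa12, Ndufab1, Ndufb4 and Ndufs6, whose values are uncertain for that reason.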

How the data were processed

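Poly(A) RNA of 1 control and 1 CR library was sequenced as 76-bp paired ends. Per the submitters' processing notes TopHat 1.2.0, Cufflinks and Cuffdiff were used; the build is mm9 per the file headers; annotation and options: not given in the sources used here. Each deposited value is labelled as the FPKM of 1 locus, on a scale that is not given. To each of them 1 had been added, as their lowest value of 1 and their digits show, so 1 was subtracted. Single-symbol loci were kept and loci of a symbol summed; 234 loci of several symbols were left out. Log2 ratios of CR over control used a pseudocount of 1 FPKM, a filter at a mean of 1 FPKM and no further scaling. Library depth and the scaling of the deposited values between the libraries are unknown. The calculation of the ratios was tested on simulated data with known ratios.

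Lengths are those of the shortest best-supported APPRIS principal transcript (GENCODE M21), found for 99.2% of genes by symbol; promoters are from RefSeq. Older symbols were matched through RefSeq synonyms. Nduf genes are named with their values, except that 1 is not reported here by name and enters the counts and medians only; of other lists, up to 3 genes of the largest ratio and the most abundant, and every non-Nduf assembly factor. Ndufb8, Ndufa4 and Ndufb3 overlaps were chosen after their values were seen. Members and lists were chosen with earlier results of these data known. Of the alternatives, the filter at 1000 FPKM and the omission of overlapping or copied members were chosen after seeing the data. Alternatives were pseudocounts of 0.1 and 5 FPKM, no filter, filters at 100 and 1000 FPKM, centring on the median gene, equal sums without the 50 most abundant genes, the largest locus, no genes at 0, and leaving out overlapping members or those with copies. Markers of cardiac muscle, tendon, fibroblast, endothelium, macrophage, erythroid and nerve cells are in the closing section. Python 3.11.15, numpy 2.4.6, pandas 2.3.3, scipy 1.17.1 and matplotlib 3.10.9 were used.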

Additional observations from a re-analysis of the deposited data

How the results depend on the processing

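The median log2 ratio of the Nduf genes stayed between 0.39 and 0.50 over 11 alternatives. Signs changed for genes near 0 such as Ndufa10, Ndufb7 and Ndufs7 when the sums of both libraries, leaving out the 50 most abundant genes, were made equal; that setting shifted ratios by -0.07, left 33 of 40 higher and put the Q median at -0.03. Counts over all genes moved with the filter: above a mean of 100 FPKM 390 were at least 2-fold higher and 417 lower, at 1000 FPKM 50 and 20, and without genes at 0 674 were lower; fewer genes entered. At 1000 FPKM 2 of 32 Nduf genes were at least 2-fold higher, beside 5.59% of all genes at that level. Without members that overlap another named locus 10 were at least 1.5-fold higher, of 28, beside 16.4% of all genes. At 2-fold, Ndufa3 and Ndufa2 lie on either side of the line, so the count of 4 was 5 with centring and 3 with rescaling or a pseudocount of 5 FPKM. With the longest principal transcript, the class from 500 to 1000 nt had medians of 0.47 for 20 Nduf genes of any level and 0.54 for 109 abundant comparison genes. For the 521 other genes of any level in that class it was 0.34. Depth is unknown and there is 1 library per diet, so no error can be set beside any ratio. No paired analysis was possible because each group has 1 library.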

Other observations

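Other cell types of the muscle sample did not move as a block. Among all genes 8.01% were at least 2-fold higher and 10.7% at least 2-fold lower. All 6 fibroblast genes were higher under CR, 3 of them past 2-fold (summed level 3227 and 5701 FPKM). Of 5 tendon genes 4 were lower, 3 by at least 2-fold (1691 and 999 FPKM). Of 5 endothelial genes 4 were higher, 1 by at least 2-fold (1239 and 1752 FPKM). The 2 measured macrophage genes lay within 2-fold, 1 higher and 1 lower (179 and 168 FPKM). Of the 2 measured erythroid genes 1 was at least 2-fold higher (16189 and 48622 FPKM), of 3 nerve genes 1, S100b, which was listed at 0 in the control library (229 and 302 FPKM), and of 3 cardiac genes 1 was at least 2-fold higher and 1 lower (8774 and 24186 FPKM).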
